A study of Mus musculus with 35 samples.

Results

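The CTLH complex is a ubiquitin ligase of many subunits, and Gid4 is its best-studied substrate receptor. The 10 genes described are Gid4, Gid8, Maea, Rmnd5a, Rmnd5b, Ranbp9, Ranbp10, Wdr26, Armc8 and Mkln1, taken by symbol. All 10 were among the 9239 genes of the deposited count table. Gid4 was picked because its mRNA was higher, and its nuclear share lower, after Chtop knockdown in these same libraries. Those values of Gid4 are therefore given as a description with no test. The other 9 genes were taken because their proteins belong to the same complex.

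In yeast the equivalent GID ligase removes gluconeogenic enzymes when glucose returns, and its Gid4 subunit recognises their N-terminal proline. In mammalian cells the scaffold, made of Ranbp9 or Ranbp10, Gid8 and Armc8, carries a catalytic pair of RING-type proteins, Maea with Rmnd5a or Rmnd5b. Gid4 docks on Armc8. Wdr26 and Mkln1 (muskelin) belong to supporting modules through which the complex forms larger assemblies, and Wdr26 is also described as recruiting substrates. Chtop, the protein depleted here, is a co-factor of the TREX complex, which couples transcription to mRNA export.

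Poly(A) RNA had been sequenced from N2a Flp-In rtTA mouse neuroblastoma cells, an established line, in 35 libraries. The 2 lines carried a doxycycline-inducible FLAG-tagged Chtop cDNA, with exon 5 (pEx5 line) or without it (mEx5 line). Each line was used in 3 conditions. Rescue cells received the Chtop siRNA and doxycycline, which switched on the siRNA-resistant cDNA; knockdown cells received the same siRNA without doxycycline; control cells received a non-targeting siRNA pool. No group received doxycycline with the control siRNA, so doxycycline itself cannot be told apart from the cDNA. Each culture was divided into total lysate (20% of the cells), nuclei and cytoplasm, with 2 biological replicates per line, condition and fraction, except that cytoplasm of pEx5 control cells has 1 library. Cells were harvested at 72 h, the medium having been changed at 24 h, from 3 culture dishes for rescue and knockdown and 2 for control.

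Library totals ran between 11681781 and 40105458 counts. In total lysate, mitochondrially encoded genes took 3.52 to 4.97% of counts in rescue, 3.38 to 4.84% in knockdown and 2.45 to 3.51% in control libraries, and the part of this difference in the results below was not tested. Chtop mRNA was 5.13-fold lower in knockdown than in control cells in total lysate (log2 fold change −2.36, SE 0.12, edgeR adjusted p = 3.6e-06), −0.84 in nuclei and −2.63 in cytoplasm, and in rescue it was above both other conditions in every fraction. Neuronal markers were present (7 of 7 at a median of 1 RPKM or more), as were 5 of 7 noradrenergic ones, while Th (0.50 RPKM) and Dbh (0.85 RPKM) were low. Of the markers of other cell types, 1 of 6 fibroblast, 1 of 5 immune and 0 of 4 astrocyte genes reached that level.

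The sequences directly upstream of Gid4, Wdr26 and Rmnd5a are shown because Gid4 and Wdr26 were higher and Rmnd5a lower after the knockdown. The Rmnd5a call was lost on leaving out most single libraries, and Gid8, Maea and Armc8, also called, are not shown. Gid4 lies on chromosome 11 (60417145 to 60450927, plus strand, mm10), head to head with Atpaf2, an assembly factor of mitochondrial ATP synthase on the opposite strand. Only 93 bases separate the start of the coding Atpaf2 transcript from that of Gid4, and these are given below. Wdr26 lies on chromosome 1 (181173228 to 181212001, minus strand) and Rmnd5a on chromosome 6 (71388634 to 71440637, minus strand). Capitals mark matches on either strand to 4 motifs searched for by their letters. The GC box was searched for as GGGCGG. The CCAAT box was searched for by the letters of its name, and the E-box was searched for as CACGTG. An ETS site was searched for as CCGGAAG, and no marked match overlaps another. The sequences are from RefSeq (GRCm38.p6) and read 5′ to 3′ on the strand of the gene.
Gid4, chr11:60417052-60417144: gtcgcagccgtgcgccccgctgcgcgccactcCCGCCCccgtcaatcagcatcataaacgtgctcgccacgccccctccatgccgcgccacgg
Wdr26, chr1:181212002-181212228: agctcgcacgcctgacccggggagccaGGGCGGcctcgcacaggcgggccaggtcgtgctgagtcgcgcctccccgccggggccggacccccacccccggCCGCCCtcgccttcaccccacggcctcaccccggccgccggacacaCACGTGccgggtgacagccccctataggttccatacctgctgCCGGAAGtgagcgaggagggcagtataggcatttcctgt
Rmnd5a, chr6:71440638-71440887: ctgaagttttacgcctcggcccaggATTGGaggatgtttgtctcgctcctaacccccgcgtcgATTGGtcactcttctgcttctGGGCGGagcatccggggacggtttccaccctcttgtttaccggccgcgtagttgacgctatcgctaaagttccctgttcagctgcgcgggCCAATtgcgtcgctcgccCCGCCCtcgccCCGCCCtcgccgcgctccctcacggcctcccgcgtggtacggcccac

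All of these stretches were rich in G and C, at 73.1% for Gid4 (93 bases), 72.7% for Wdr26 (227 bases) and 64.8% for Rmnd5a (250 bases). The median RefSeq promoter window, of 250 bases, had 52.4%. At that same length the windows of Gid4 and Wdr26 had 64.0% and 72.4%. The Gid4 stretch and its full window each held 1 GC box match, a motif found in 32.7% of the 32851 mouse promoter windows. Neither held a CCAAT, E-box or ETS match. Rmnd5a had 3 CCAAT matches (33.8% of windows hold a match) and 3 GC box matches. Wdr26 had 2 GC box matches, 1 E-box (6.02% of windows) and 1 ETS match (6.91% of windows). The TATA box letters TATAAA, found in 12.4% of windows, and those of the cAMP response element, TGACGTCA, found in 1.55%, were in none of the windows of the 8 genes that have one. Such matches are letters in a window and say nothing of binding.

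All Gid4 values of knockdown libraries lay above all those of control libraries, in each of the 3 fractions. Levels are CPM, counts relative to the library total, scaled by the trimmed mean of M values (TMM) within a fraction, so they compare libraries of 1 fraction. In these bulk lysates a difference in all cells and a difference in some of them cannot be told apart. In total lysate the rescue libraries had 100.2 and 105 CPM in the mEx5 line and 96.6 and 100.4 CPM in the pEx5 line. Knockdown libraries held 104 and 116 CPM in mEx5 and 103 and 104 CPM in pEx5 cells. Controls stood at 39.2 and 44.0 CPM in mEx5 and 34.3 and 35.1 CPM in pEx5 cells. Rescue and knockdown libraries thus overlapped, and both lay above the highest control. The Gid4 log2 fold change of knockdown over control was 1.49 (SE 0.06), or 2.81-fold, the 20th highest of 9237 genes tested. It was 1.40 in the mEx5 and 1.58 in the pEx5 line.

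In nuclei the difference was smaller. Gid4 had 52.1, 56.7, 40.2 and 48.0 CPM in the rescue nuclei and 53.1, 54.3, 49.6 and 51.5 CPM in the knockdown nuclei, against 34.2, 35.4, 28.8 and 32.2 CPM in control nuclei (2 mEx5 libraries, then 2 pEx5 libraries in each). The nuclear log2 fold change of knockdown over control was 0.68 (SE 0.08), the 287th highest of 9239. In cytoplasm Gid4 had 116, 125, 109 and 112 CPM in rescue, 135, 127, 125 and 117 CPM in knockdown and 39.8, 50.5 and 37.2 CPM in control. There the log2 fold change of knockdown over control was 1.62 (SE 0.09), the 11th highest of 9238, or 3.07-fold. Only 1 pEx5 library stands behind the cytoplasmic control.

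**Figure D1:**
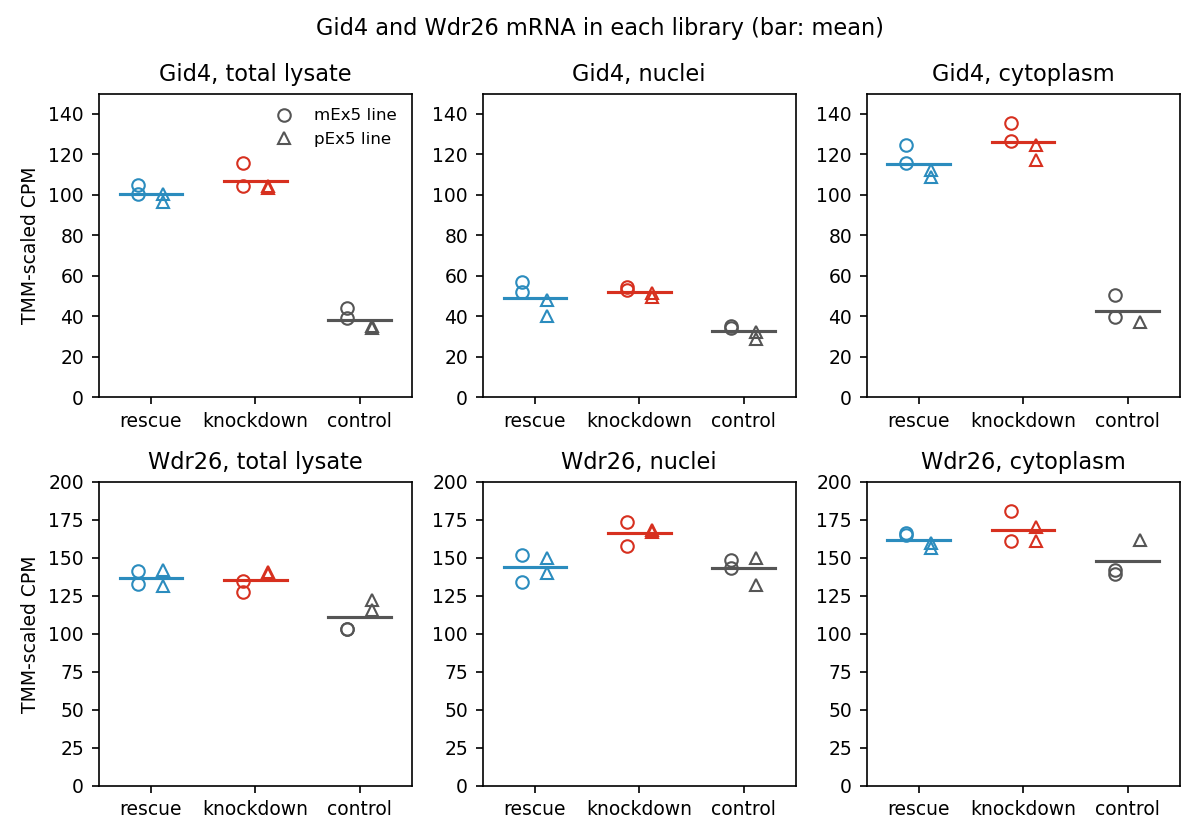
Gid4 (upper row) and Wdr26 (lower row) in each library, as TMM-scaled CPM, by fraction and condition; circles are the mEx5 line, triangles the pEx5 line and bars the mean. Gid4 lies above every control library in both rescue and knockdown, in each fraction, while Wdr26 does so in total lysate with a smaller difference.

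In rescue cells Gid4 stood close to its knockdown level. Rescue minus knockdown was −0.09 on the log2 scale for total lysate (SE 0.06), −0.09 for nuclei (SE 0.08) and −0.13 for cytoplasm (SE 0.08). Rescue minus control was 1.40 for total lysate, 0.59 for nuclei and 1.49 for cytoplasm. These comparisons share the knockdown or the control libraries that Gid4 was chosen on, so they carry no test. Of all genes tested, rescue against knockdown called 0.0217% with total lysate, 0.0108% with nuclei and 0.0433% with cytoplasm, or 2, 1 and 4 genes, with 660, 771 and 886 genes at an unadjusted p under 0.05. DESeq2 called 22, 79 and 21. Without the second knockdown library of pEx5 cytoplasm, 1305 genes were called in cytoplasm, none of them among the 9 other genes of the complex. With the replicate number as a block the counts were 170 for total lysate and 632 for nuclei.

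Setting the rescued lines against each other compared only rescue libraries, on none of which Gid4 was chosen. The scaling and the estimate of spread came from all libraries of the fraction, control and knockdown ones among them. Each cDNA was in its own line, so a difference between the cDNAs cannot be told apart from one between the lines. In nuclei Gid4 was lower in the rescued pEx5 line (40.2 and 48.0 CPM) than in the rescued mEx5 line (52.1 and 56.7 CPM). This log2 difference of −0.30 (SE 0.12) did not pass the test (edgeR adjusted p = 0.51). It did with the replicate block (SE 0.09, edgeR adjusted p = 0.043). Without doxycycline, mean Gid4 in nuclei was also lower in the pEx5 than in the mEx5 line. It was 30.5 against 34.8 CPM in control and 50.6 against 53.7 CPM in knockdown cells. In total lysate the same difference was −0.06 (edgeR adjusted p = 0.96) and in cytoplasm −0.12 (edgeR adjusted p = 0.79), neither of which passed. Over all genes this comparison called 0% for total lysate (671 genes at an unadjusted p under 0.05; 71 called by DESeq2), 0.0108% for nuclei and 0.271% for cytoplasm. For the other 9 genes, neither the knockdown change nor the rescue change was called as differing between the lines in any fraction; both changes use libraries that Gid4 was chosen on, so Gid4 is not counted there. No gene of the whole table was called there either (0% in each fraction; 98 genes in total lysate, 26 in nuclei and 288 in cytoplasm at an unadjusted p under 0.05 for the rescue change, and 112, 604 and 253 for the knockdown change), although DESeq2 called 7 genes for the rescue change in cytoplasm and 1 for the knockdown change in nuclei, where the replicate block called 159. Without the second knockdown library of pEx5 cytoplasm, 274 genes were called there for the rescue change and 15 for the knockdown change, none of them among the 9.

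Among the other 9 genes, changes after knockdown were small and went both ways. In total lysate 5 of the 9 were called, 2 higher and 3 lower, where 43.9% of all genes tested were called (21.4% higher and 22.6% lower). Their median log2 fold change was −0.01, beside 0.01 over all genes tested. The count was 2 of 9 when scaled by library totals alone, 3 of 9 in one fit of all 35 libraries, and between 1 and 4 of 9 when any 1 of the 8 libraries was left out. Wdr26, one of the supporting subunits, rose. It had 141, 133, 131 and 142 CPM in rescue and 128, 135, 139 and 141 CPM in knockdown, against 104, 103, 122 and 115 CPM in control cells (mEx5, then pEx5). Every knockdown library was above every control library, and the log2 fold change was 0.29 (SE 0.05, edgeR adjusted p = 0.002). This call held with each single library left out, the highest edgeR adjusted p being 0.011.

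Gid8, a scaffold subunit, rose by 0.33 on the log2 scale in total lysate (SE 0.09, edgeR adjusted p = 0.016). It had 38.4, 33.5, 41.5 and 36.7 CPM in knockdown, against 32.3, 28.1, 31.4 and 27.5 CPM in control cells, so the groups did not overlap. Of the sequence words of 31 bases in Gid8 transcripts, 11.4% also occur in other genes, most of them in Gm5206, so its counts are less certain than those of the other members, which share at most 1.63%.

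Maea, a catalytic RING-type subunit, fell by 0.24 on the log2 scale in total lysate (SE 0.07, edgeR adjusted p = 0.022). It had 131, 152, 131 and 150 CPM in knockdown, against 160, 164, 165 and 177 CPM in control cells, again without overlap. Its catalytic partner Rmnd5a fell by 0.16 (SE 0.06, edgeR adjusted p = 0.043), with 72.5, 72.9, 75.0 and 79.1 CPM in knockdown and 80.4, 84.8, 81.2 and 88.6 CPM in control cells. Armc8, the scaffold subunit on which Gid4 docks, fell by 0.16 (SE 0.06, edgeR adjusted p = 0.04), with 28.9, 28.9, 28.7 and 30.1 CPM in knockdown and 34.2, 31.6, 32.5 and 32.3 CPM in control cells. For both Rmnd5a and Armc8 the lowest control library was above the highest in knockdown. How many of all genes separate in this way was not counted, here or for the other separations given. Such separation is therefore no support beyond the calls themselves. Leaving out 1 of the 8 libraries at a time ended the call for Armc8 in all 8 cases, for Rmnd5a in 7 and for Gid8 and Maea in 4 each, with edgeR adjusted p of up to 0.13 for Armc8, 0.16 for Rmnd5a, 0.067 for Gid8 and 0.083 for Maea. Library totals alone also ended the calls for Maea (edgeR adjusted p = 0.066), Rmnd5a (edgeR adjusted p = 0.11) and Armc8 (edgeR adjusted p = 0.086). One fit of all 35 libraries ended those for Rmnd5a (edgeR adjusted p = 0.13) and Armc8 (edgeR adjusted p = 0.051), and the authors' scaling factors ended that for Rmnd5a (edgeR adjusted p = 0.085).

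The remaining 4 did not pass in total lysate. The alternative catalytic subunit Rmnd5b had a log2 fold change of 0.10 (SE 0.07), muskelin (Mkln1) one of −0.10 (SE 0.06), and the scaffold subunits Ranbp9 and Ranbp10 were at −0.01 (SE 0.06) and −0.00 (SE 0.08). Rmnd5a was called and its paralog Rmnd5b was not, and the difference between them was not tested. Neither pair of paralogs, Rmnd5a with Rmnd5b or Ranbp9 with Ranbp10, shares any 31-base word. Exons of Rmnd5b overlap those of Nhp2 by 44 bases and exons of Ranbp9 overlap those of Nol7 by 453 bases, on opposite strands, and whether reads were assigned by strand is not given by the sources at hand.

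In nuclei 1 of the 9 was called, where 31.4% of all genes were. Maea fell by 0.24 (SE 0.07, edgeR adjusted p = 0.024), with 105, 113, 107 and 112 CPM in knockdown nuclei and 115, 127, 134 and 144 CPM in control nuclei. With the replicate block, 4 of the 9 were called (and 5123 genes in place of 2903): besides Maea, Wdr26 at 0.22 (edgeR adjusted p = 0.0025), Ranbp10 at 0.18 (edgeR adjusted p = 0.018) and Mkln1 at 0.18 (edgeR adjusted p = 0.0079) were higher. The Maea call without the block was lost on leaving out any 1 of 4 libraries (edgeR adjusted p up to 0.094). It was also lost with the authors' scaling factors (−0.16, edgeR adjusted p = 0.17), under which Mkln1 was the 1 gene of the 9 called. In cytoplasm 1 of the 9 was called, where 40.7% of all genes were. Gid8 rose there by 0.23 (SE 0.08, edgeR adjusted p = 0.036), with 41.4, 40.7, 43.6 and 40.5 CPM in knockdown and 36.8, 32.1 and 36.3 CPM in control cytoplasm, a call that was lost on leaving out any of 4 libraries (edgeR adjusted p up to 0.10).

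**Figure D2:**
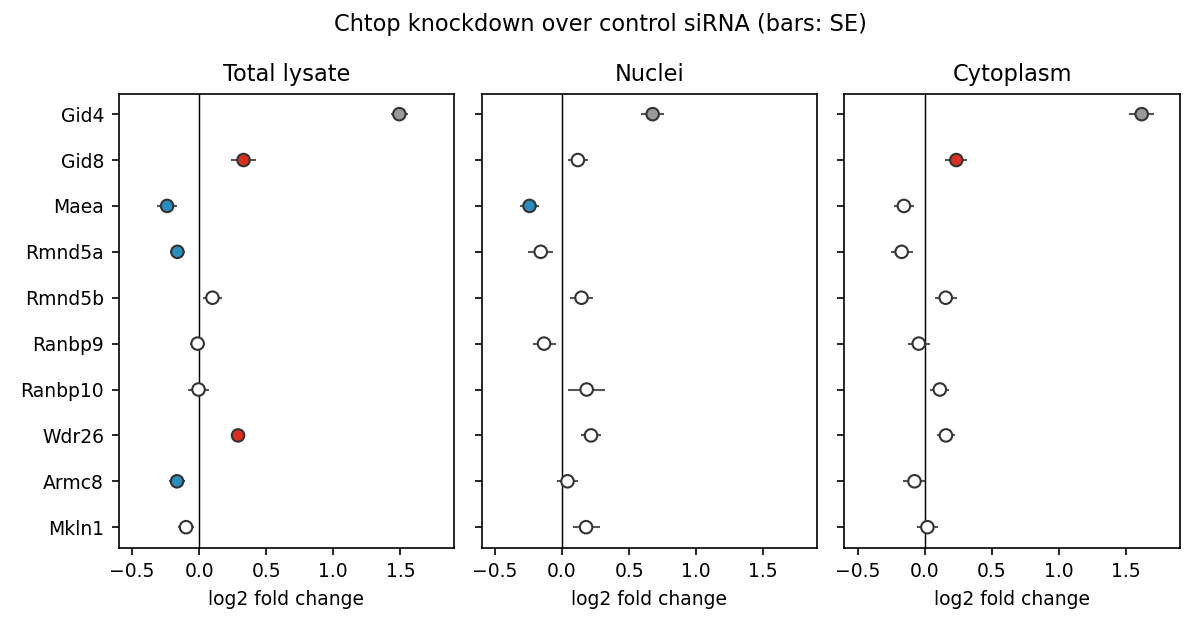
Log2 fold change of knockdown over control for the 10 genes in each fraction, with its SE as a bar. Red points were called higher and blue points lower (edgeR adjusted p under 0.05), open points were not called, and grey points (Gid4) were not tested; Gid4 stands at 1.49, 0.68 and 1.62, and the other 9 lie between −0.24 and 0.33.

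None of the 9 was called between rescue and knockdown in any fraction without the block. Their log2 values lay between −0.12 and 0.13 with total lysate, between −0.21 and 0.09 with nuclei and between −0.09 and 0.05 with cytoplasm. Wdr26 in nuclei was the largest of these in size. It had 134, 152, 140 and 150 CPM in rescue nuclei, 158, 173, 167 and 169 CPM in knockdown nuclei and 143, 148, 132 and 150 CPM in control nuclei. All rescue nuclei were thus below all knockdown nuclei and overlapped the control nuclei. The log2 difference of rescue from knockdown was −0.21 (SE 0.08, edgeR adjusted p = 0.56), and the replicate block called it (SE 0.06, edgeR adjusted p = 0.027). In total lysate, by contrast, Wdr26 in rescue and knockdown differed by 0.01 (SE 0.05).

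**Figure D3:**
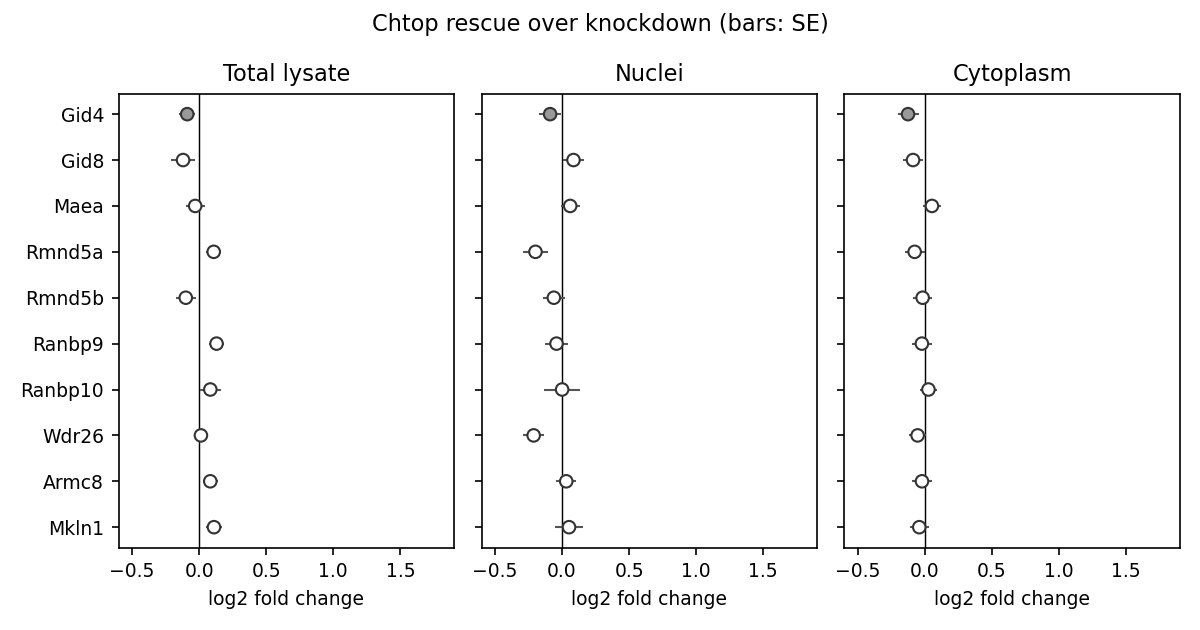
Log2 fold change of rescue over knockdown for the 10 genes in each fraction, with its SE as a bar, on the same scale and with the same colours as the plot of the knockdown change. None of the 9 tested genes was called, and Gid4 (grey, not tested) stands at −0.09, −0.09 and −0.13.

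Rescue against control, which shares its control libraries with the knockdown comparison, called 2 of the 9 in total lysate (37.3% of all genes): Wdr26 at 0.30 (edgeR adjusted p = 0.002) and Maea at −0.27 (edgeR adjusted p = 0.016). The Maea call was lost with library totals alone (edgeR adjusted p = 0.055) and on leaving out any 1 of 4 libraries (edgeR adjusted p up to 0.061). With the block Gid8 was also called there, at 0.21 (edgeR adjusted p = 0.0059), and 5352 genes in place of 3442. In nuclei Rmnd5a alone was called, at −0.36 (SE 0.10, edgeR adjusted p = 0.022; 23.7% of all genes). It had 110, 92.2, 102 and 102 CPM in rescue nuclei and 155, 122, 116 and 127 CPM in control nuclei, and the call was lost without the first control library of the mEx5 line (−0.27, edgeR adjusted p = 0.087) and without any of 3 others. The block called 6 of the 9 in nuclei and 4604 genes in place of 2191. In cytoplasm Rmnd5a was again the 1 gene called, at −0.25 (SE 0.08, edgeR adjusted p = 0.034; 35.7% of all genes), and every left-out library among the 6 tried ended that call (edgeR adjusted p up to 0.11), as did library totals alone (edgeR adjusted p = 0.086).

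Levels per transcript length were compared between genes on the RPKM scale. In total lysate of control cells Maea had 104 ± 4.73 RPKM and Mkln1 98.0 ± 2.23 RPKM (SD, n = 4). Wdr26 followed at 38.4 ± 2.99 RPKM, Ranbp9 at 30.7 ± 0.99, Rmnd5a at 27.1 ± 1.27 and Gid8 at 26.1 ± 2.12. Lower still were Rmnd5b at 16.8 ± 0.92, Armc8 at 14.4 ± 0.58, Gid4 at 11.9 ± 1.41 and Ranbp10 at 9.60 ± 0.25 RPKM. The levels of Rmnd5a and Gid8 did not differ beyond their spread, nor did those of Maea and Mkln1 by more than the sum of their SDs. Mkln1 alone had a higher RPKM than CPM, at 98.0 and 85.0, where Maea had 104 and 165. The coding transcripts of Mkln1 run from 791 to 11395 bases, and the length used for its RPKM is not given. Its place beside Maea rests on that length. Gid4 was 9th of the 10 in control cells, 5th in rescue at 29.9 ± 1.18 RPKM and 4th in knockdown at 31.9 ± 1.84 RPKM. In knockdown Gid4 and Gid8 (31.6 ± 2.88 RPKM) overlapped. In nuclei Gid4 was the lowest of the 10 in each condition, at 10.9 RPKM in rescue, 11.3 in knockdown and 7.79 in control.

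**Figure D4:**
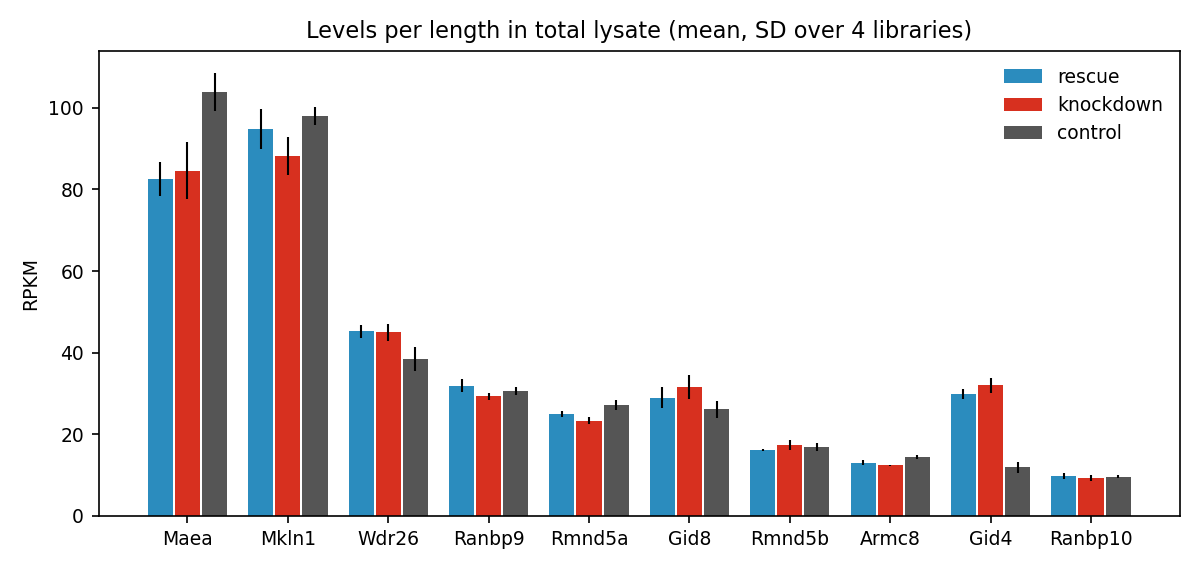
Levels in total lysate as RPKM (the authors' values), mean with SD over 4 libraries per condition, genes ordered by their control level. Gid4 stands at 29.9 in rescue, 31.9 in knockdown and 11.9 in control, while Ranbp10 stays lowest at 9.70, 9.20 and 9.60.

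The mRNAs of the complex were spread unevenly between nucleus and cytoplasm. Values here are log2 ratios of scaled nuclear to cytoplasmic counts, and no spike-in is named, so a ratio shows where an mRNA stands relative to the other mRNAs and not the share of its molecules. Nuclei and cytoplasm of the same culture were fitted as independent libraries. The SEs and adjusted p of all ratios, here and below, therefore ignore that pairing. In control cells 7 of the 9 were called, 4 higher in nuclei and 3 lower, where 69.9% of all genes were called (33.8% higher and 36.1% lower). Ranbp10 was highest at 1.17 (SE 0.13, edgeR adjusted p = 1.1e-06). Its culture values were 1.06, 1.37, 0.99 and 1.46 in rescue, 1.02, 1.42, 1.21 and 1.34 in knockdown and 1.19, 1.33 and 0.95 in control cells. Rmnd5b was at 0.74 and Mkln1 at 0.59, both called, and Rmnd5a at 0.23 (edgeR adjusted p = 0.043). Gid8 was lowest at −0.64 (SE 0.08, edgeR adjusted p = 1.8e-06), followed by Maea at −0.31 and Ranbp9 at −0.25. The calls for Rmnd5a and Ranbp9 were lost on leaving out single libraries (edgeR adjusted p up to 0.19 and 0.078), and that for Rmnd5a with library totals alone (edgeR adjusted p = 0.0505). Wdr26 (−0.01) and Armc8 (0.02) were not called.

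The sign for Mkln1 and Armc8 depended on how counts were scaled. The authors' normalized counts divide each count by a factor that differs between genes as well as libraries. For Mkln1 that factor was 1.29 higher on the log2 scale in nuclei than in cytoplasm, above that of 99.9% of genes. Scaled so, Mkln1 in control cells was −0.53 (edgeR adjusted p = 0.0014) in place of 0.59, and Armc8 −0.42 (edgeR adjusted p = 0.0015) in place of 0.02. The authors' deposited table lists −0.50 for Mkln1 and −0.41 for Armc8. Mkln1 has 13 annotated transcripts, of which 8 are retained-intron forms, more than any other member. For Mkln1 after knockdown in nuclei, the same scaling gave −0.37 (edgeR adjusted p = 0.04) in place of 0.18. It also ended the calls for Maea (−0.03) and Rmnd5a (0.17) in control cells.

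The Gid4 ratio was lower in rescue and in knockdown cells than in control cells. The log2 nuclear to cytoplasmic ratio was −1.08, −1.05, −1.37 and −1.16 in rescue cultures and −1.27, −1.14, −1.27 and −1.12 in knockdown cultures, against −0.14, −0.45 and −0.31 in control cultures. No rescue or knockdown culture reached the control range, and rescue and knockdown cultures overlapped. The ratio changed by −0.93 between knockdown and control (SE 0.12), which was 9229th from the top of 9239 genes, by −0.89 between rescue and control (SE 0.12), and by 0.04 between rescue and knockdown (SE 0.12). The authors' deposited table gives a change of −0.92 for knockdown, with −1.32 in knockdown and −0.40 in control cells. Since the nuclear level of Gid4 was also higher in knockdown than in control cells, the lower ratio went with a larger difference in cytoplasm, not with a lower nuclear level.

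In rescue cells, whose libraries took no part in choosing Gid4, its nuclear level was below its cytoplasmic one by −1.16 on the log2 scale (SE 0.08, edgeR adjusted p = 3.5e-09), in 4 of 4 cultures. That call held under every alternative scaling and filter tried, under DESeq2 and without each library. The scaling and the estimate of spread came from all 23 nuclear and cytoplasmic libraries, control and knockdown ones among them. In rescue cells 8 of the 10 genes were called, 4 higher and 4 lower in nuclei, where 73% of all genes were (35.5% higher and 37.5% lower). Gid4 was followed by Gid8 at −0.57, Maea at −0.38 and Ranbp9 at −0.34. Ranbp10 at 1.23, Mkln1 at 0.86, Rmnd5b at 0.70 and Armc8 at 0.21 were higher in nuclei; with the authors' factors Mkln1 was at −0.40 and Armc8 at −0.18. Those factors also ended the Maea call (−0.13, edgeR adjusted p = 0.11), and library totals alone ended that of Armc8 (0.13, edgeR adjusted p = 0.11).

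None of the other 9 changed its ratio after knockdown by the test, where 5.14% of all genes did (475 genes, with 1918 at an unadjusted p under 0.05). With TMM scaling their changes ran between −0.10 for Gid8 and 0.17 for Mkln1, beside the −0.93 of Gid4, with SEs of 0.10 to 0.17. In the authors' deposited table they run between −0.30 for Mkln1 and 0.20 for Armc8, so the sign for Mkln1 depended on the scaling. The authors' factor for Mkln1 was higher in nuclei than in cytoplasm by 1.09 in control and 1.54 in knockdown cells, on the log2 scale. DESeq2 and the replicate block called 0 of the 9 as well, although they called 792 and 1188 genes. Rescue against control called 0 of the 9 too (5.13% of all genes).

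**Figure D5:**
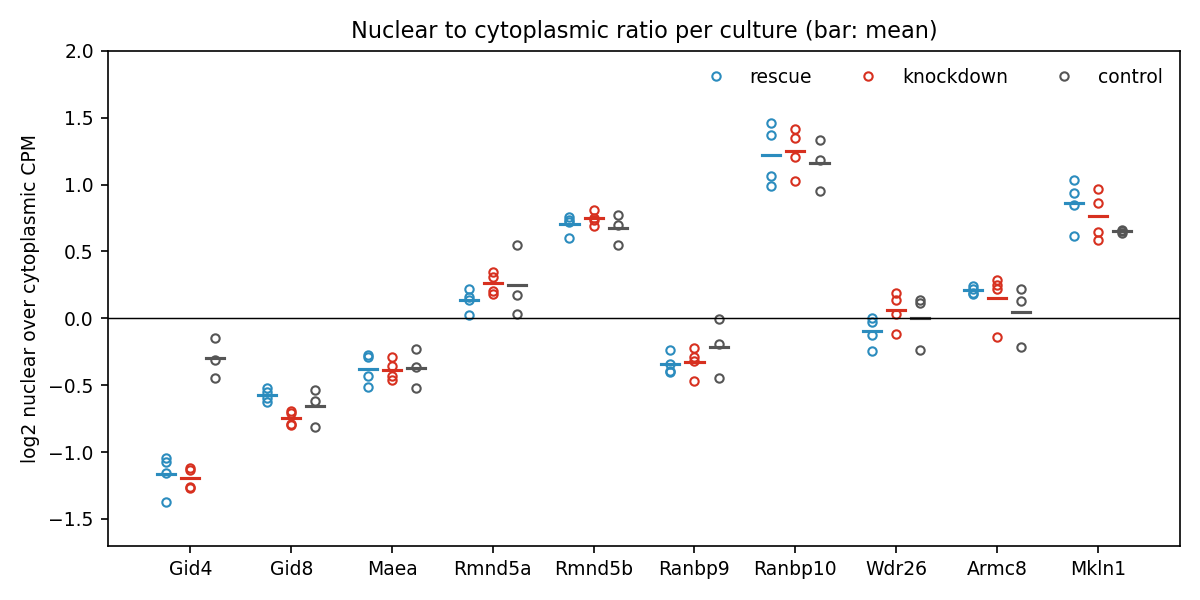
Log2 ratio of nuclear to cytoplasmic scaled counts for each culture, by gene and condition (4 rescue, 4 knockdown and 3 control cultures), with bars at the mean. Gid4 lies near −1.2 in rescue and knockdown and between −0.45 and −0.14 in control, while each of the other genes keeps a similar place in all conditions.

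The genes on either side of Gid4 moved less. Atpaf2, whose coding transcript starts 93 bases away, had 31.6 to 36.1 CPM in rescue, 32.8 to 38.8 CPM in knockdown and 28.9 to 33.8 CPM in control total lysate, so the groups overlapped. Its log2 fold change of knockdown over control was 0.19 (SE 0.07, edgeR adjusted p = 0.059), which the replicate block called (edgeR adjusted p = 0.013), as it did the 0.22 in nuclei (edgeR adjusted p = 0.12 without and 0.03 with the block). In cytoplasm Atpaf2 had 34.5 to 37.3 CPM in rescue and 34.3 to 38.4 CPM in knockdown, all above the 31.1 to 34.2 CPM in control. The log2 fold change of knockdown over control there was 0.18 (SE 0.08, edgeR adjusted p = 0.071), which was called with the block (edgeR adjusted p = 0.046) and with library totals alone (0.23, edgeR adjusted p = 0.026). The nuclear to cytoplasmic ratio of Atpaf2 changed by 0.04 (SE 0.12, edgeR adjusted p = 0.88). Drg2, a GTP-binding protein gene downstream of Gid4, was at 0.06 (SE 0.06, edgeR adjusted p = 0.42). Atpaf2 and Gid4 overlap over 1313 bases but share no exon bases.

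The profiles most like that of Gid4 were those of Gdf11, a TGF-β family ligand (r = 0.97), Sertad4 (r = 0.96), Lhfpl4, a partner of GABA-A receptors (r = 0.96), Klhl21, an adaptor of a cullin-3 ubiquitin ligase (r = 0.95), and Ina, the neuronal intermediate filament α-internexin (r = 0.95). The measure is Pearson's r of log2 CPM centred within each fraction, over all 35 libraries and 8806 genes of at least 5 CPM on average, and the points share the knockdown libraries. Gdf11 had 54.0 CPM in rescue, 53.6 CPM in knockdown and 22.5 CPM in control total lysate. Within the complex r ran from 0.72 for Wdr26 (842nd of 8806) and 0.65 for Gid8 down to −0.49 for Rmnd5a and −0.71 for Maea (7878th).

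Genes that work with the complex were counted as well. Of 9 conjugating enzymes and partner genes, 6 were tested, and in total lysate 1 was called higher and 2 lower after knockdown (median 0.02), beside 21.4% higher and 22.6% lower over all genes (median 0.01). Ube2h, the E2 enzyme that works with CTLH, had 71.9 ± 3.67 CPM in rescue and 63.6 ± 5.27 CPM in knockdown, against 97.5 ± 8.63 CPM in control cells (SD, n = 4 each). It fell by 0.61 on the log2 scale (SE 0.08, edgeR adjusted p = 3.0e-04), and it also fell in nuclei (−0.53, edgeR adjusted p = 0.0017) and cytoplasm (−0.59, edgeR adjusted p = 6.5e-04). Each Ube2h call held without any single library. Ypel5, described as a CTLH-bound protein, fell by 0.36 (edgeR adjusted p = 0.016), a call lost without the second knockdown library of the mEx5 line (−0.28, edgeR adjusted p = 0.055). Ube2d1, another E2 enzyme, rose by 0.40 (edgeR adjusted p = 0.029), which each of 4 single libraries could end (edgeR adjusted p up to 0.11).

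Of 7 genes whose proteins are described as CTLH substrates or Gid4-bound, all were tested, with 1 higher and 2 lower in total lysate (median −0.15), again beside 21.4% and 22.6% of all genes (median 0.01). Zmynd19 rose by 0.62 (SE 0.11, edgeR adjusted p = 0.0014), with 147 ± 10.2 CPM in rescue and 164 ± 18.1 CPM in knockdown, against 107 ± 14.1 CPM in control cells. Hmgcs1, an enzyme of sterol synthesis, fell by 0.68 (SE 0.08, edgeR adjusted p = 1.5e-04), with 104 ± 7.56 CPM in rescue and 103 ± 8.28 CPM in knockdown, against 165 ± 16.5 CPM in control cells. The RNA helicase gene Ddx50 fell by 0.19 (edgeR adjusted p = 0.044), a call lost on leaving out any 1 of 6 libraries (edgeR adjusted p up to 0.16). These are mRNA levels, and ligase substrates are controlled as proteins, which were not measured here. Of 6 mouse counterparts of the enzymes that the yeast ligase degrades, Mdh1, Mdh2 and Pck2 were tested and 0 were called in total lysate, where 43.9% of all genes were. In nuclei, where 31.4% of all genes were called, Pck2 alone of these 3 was, and it rose by 0.29 (edgeR adjusted p = 0.02), a call lost on leaving out any 1 of 4 libraries. Rescue against knockdown called none of the genes of these lists in any fraction.

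A mark of overlap with Chtop iCLIP sites, which record where the protein was bound on RNA, stands in the authors' deposited table. It is set for 5 of the 10 genes (50%), namely Rmnd5a, Ranbp9, Wdr26, Armc8 and Mkln1, and for 4484 of 9239 genes in the table (48.5%). Gid4 does not carry it.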

How the data were processed

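The authors deposited whole-number read counts per gene and RPKM values; Salmon 0.14.1, DESeq2 and mm10 are named, with no role, per the submitters' processing notes. The deposited normalized counts (signal) divide counts by factors that differ between genes and libraries, and the deposited log2 nuclear to cytoplasmic ratios and iCLIP marks are the authors'. Of the RPKM columns, 1 matched no sample and was not used. edgeR 4.0.16 (R 4.3.3; TMM, low-count filter, robust quasi-likelihood test) was fitted to each fraction and, for ratios, to 23 nuclear and cytoplasmic libraries together, over 9237 to 9239 genes, with Benjamini-Hochberg adjustment and a call at 0.05. SEs are the log2 fold change over the root of F. DESeq2 1.42.0 was an alternative. The replicate block was read beside results in total lysate and nuclei because libraries with the same replicate number in the labels deviated together (r 0.35 to 0.79 and 0.52 to 0.72 over 15 pairs each). That reason does not cover its results in cytoplasm, where r ran from 0.059 to 0.65 over 10 pairs, or for ratios, where r was not computed. Every member was named, with pathway genes by the size of their called change. The members and lists were chosen with earlier results of these data known. Positions are from GENCODE M21. Scripts were tested on simulated data.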

Additional observations from a re-analysis of the deposited data

How the results depend on the processing

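Of the values for single genes called in the fit used above or in the alternative, 5 reversed in sign. Sign changes of values called in neither fit were not counted, and some occurred. Leaving out 1 library, for example, moved Ranbp10 after knockdown in total lysate between −0.05 and 0.04. All 5 counted reversals came with the authors' scaling factors, an alternative chosen after seeing the data. They were Mkln1 in nuclei after knockdown (−0.37) and in its nuclear to cytoplasmic ratio in control (−0.53) and rescue (−0.40), and Armc8 in that ratio in control (−0.42) and rescue (−0.18). Beside these, 33 values for single genes gained and 16 lost a call under another fit, and 8 gained and 68 lost one on leaving out a library. Counts that moved by over 1.5 times follow, and the cause was not tested. With library totals alone, called members numbered 2 for knockdown and 1 for rescue against control in total lysate, and 2 and 0 in cytoplasm. With the replicate block, called genes numbered 170 for rescue against knockdown, 5352 for rescue against control and 245 for the rescued lines in total lysate. In nuclei the block gave 5123 genes (4 members) for knockdown, 632 (1 member) for rescue against knockdown, 4604 (6 members) for rescue against control, 159 for the knockdown change between lines and 1114 (1 member, Gid4) for the rescued lines. In cytoplasm, where same-numbered libraries did not all deviate together (r 0.059 to 0.65 over 10 pairs), the block gave 2 members for knockdown, 7 genes for rescue against knockdown and 77 for the rescued lines. For the change of the ratio it gave 1188 genes for knockdown, 4 for rescue against knockdown and 1340 for rescue against control. With all 35 libraries in one fit, 3 members were called for knockdown in total lysate, 5 genes for rescue against knockdown and 29 for the rescued lines; in nuclei, 2 members for knockdown, 37 genes for rescue against knockdown, 3306 genes (4 members) for rescue against control and 37 genes for the rescued lines; for the ratio, 787 genes for knockdown and 871 for rescue against control. The authors' factors gave 3 genes for the rescued lines in total lysate, 0 in nuclei, and 2 members in cytoplasm for knockdown and also 2 for rescue against control. DESeq2 gave 22 genes for rescue against knockdown and 71 for the rescued lines in total lysate; in nuclei, 2 members for knockdown, 79 genes for rescue against knockdown, 2 members for rescue against control, 1 gene for the knockdown change between lines and 31 for the rescued lines; in cytoplasm, 21 genes for rescue against knockdown, 7 for the rescue change between lines and 118 for the rescued lines; for the ratio, 792, 4 and 910 genes for knockdown, rescue against knockdown and rescue against control. Ordered by CPM in place of RPKM, 8 members in total lysate, 10 in nuclei and 9 in cytoplasm stood at another rank. On leaving out 1 library at a time, members called ran from 1 to 4 for knockdown and 1 to 3 for rescue against control in total lysate, 0 to 1 for both in nuclei, and 0 to 2 for knockdown and 0 to 0 for rescue against control in cytoplasm. Genes called ran from 1 to 2 for rescue against knockdown in total lysate, 1256 to 2025 for rescue against control in nuclei, and 0 to 0 for the rescued lines in nuclei and in cytoplasm. In cytoplasm they ran from 1 to 1305 for rescue against knockdown, 0 to 274 for the rescue change between lines and 0 to 15 for the knockdown change between lines, each highest without the second pEx5 knockdown library. For the ratio they ran from 172 to 544 for knockdown, 0 to 2 for rescue against knockdown and 129 to 991 for rescue against control. Leaving out the 1 pEx5 control library of cytoplasm left no value for comparisons that need it. Where a group kept 1 library, that library was assumed to vary like the others.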
